A study of Bos taurus with 15 samples.

Results

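The locus was the stretch of bovine chromosome 14 from position 1750000 to 1850000 (assembly UMD3.1) that holds DGAT1, at about 1795351 to 1804562, and its neighbour HSF1. All cytosine positions inside these limits were taken from each of the 15 animals. The limits were set by position and not by any methylation value. They enclosed 5383 of the 27136487 distinct positions read in the series, in 20 of the 534230 bins of 5 kb that held a read. The 200 kb on each side held 18491 positions in 80 bins and served as the comparison. In the RefSeq annotation of a later assembly (ARS-UCD2.0) the protein-coding genes run SLC52A2, FBXL6, TMEM249, SCRT1, DGAT1, HSF1, BOP1, SCX and MROH1. The limits of HSF1 on UMD3.1 were not used here, so values on the higher-coordinate side of DGAT1 are given by position and not assigned to HSF1, and the orientation of this gene order on UMD3.1 was not checked.

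DGAT1 encodes diacylglycerol O-acyltransferase 1, which adds the last fatty acid in the synthesis of triglycerides, the main lipid of milk fat and of the fat stored in liver. HSF1 encodes heat shock factor 1, the transcription factor that switches on chaperone genes when cells are heated. In mammals most CpG cytosines are methylated, while the CpG-rich starts of widely expressed genes, such as both of these, usually are not.

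Reduced representation bisulfite sequencing (RRBS) reads cytosines near restriction sites and calls each cytosine in a read methylated or unmethylated, so a read can give several calls. It was run on Holstein offspring of dams that were dry during the last 6 to 7 weeks of gestation. Cooled dams had shade, fans and soakers, and heat stressed dams had shade alone. Liver was taken at birth from 5 bull calves of cooled dams (IUCL-B, in utero cooled) and 4 bull calves of heat stressed dams (IUHT-B). Mammary gland was biopsied at day 21 of the first lactation from 3 heifers of cooled dams (IUCL-H) and 3 heifers of heat stressed dams (IUHT-H). Every animal gave 1 library of whole tissue, so a level is an average over its cell types. Liver and mammary gland also differed in sex, age and library breadth, which cannot be told apart from tissue. No marker gene could be used to check the tissue, because no gene positions of UMD3.1 were used beyond those of DGAT1.

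The libraries differed in breadth more than in size. The 6 heifer libraries listed 7552567 to 9753540 positions with a median of 1 read call per position, and the 9 calf libraries listed 307023 to 5958861 positions. In the locus, the heifers had 1236 to 2517 positions and 2101 to 4405 calls. Of the calves, IUCL-B calf 5 had 1606 positions and IUCL-B calf 4 had 751, while the other 7 calves had 55 to 145. A heifer level was therefore a mean over many shallow positions, and most calf levels rested on few deep ones. IUHT-B calf 5 stood at the extreme, with 28.8% of its 2136 calls in the locus at a single position. Heifers shared 171 of their 4777 positions in the locus across all 6 animals, and no position was read in all 9 calves.

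The methylation level, the percent of calls that were methylated, was lower in the locus than in its surroundings in mammary gland. In the locus it was 68.3%, 69.3% and 55.3% in IUCL-H heifers 1 to 3 and 60.7%, 68.7% and 58.7% in IUHT-H heifers 1 to 3. In the 200 kb on each side the same heifers had 79.5%, 78.4%, 71.4%, 73.4%, 77.5% and 73.2%. Every heifer was lower in the locus, and the ranges of locus and flanks did not overlap. The difference was -12.1 ± 2.91 percentage points (SD, n = 6), with a two-sided exact sign-flip permutation P = 0.03125, the smallest that 6 animals allow. Any 5 of the 6 heifers gave -12.7 to -11.3 points, but the smallest P possible is then 0.0625. This test asks whether the heifers share the gap. How often other stretches of the genome differ as much from their flanks is not given here. Among 11468 windows of 100 kb across the genome, 10.7% had a lower mean heifer level than the 63.5% of the locus, where the median window had 75.6%. The locus was also densely read, with more positions per heifer than 97.1% of those windows.

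In liver the same difference was not seen. Locus levels were 78.9%, 71.8%, 84.4%, 57.1% and 58.3% in IUCL-B calves 1 to 5, and 76.4%, 71.8%, 52.6% and 99.0% in IUHT-B calves 2 to 5. The locus was lower than the flanks in 5 of 9 calves, and the mean difference was -3.59 ± 15.8 points (SD, n = 9; exact sign-flip permutation P = 0.531). It was -0.171 points without IUHT-B calf 4, -1.94 points without IUCL-B calf 4 and -7.14 points without IUHT-B calf 5. IUCL-B calf 4 (-16.8 points) and calf 5 (-10.1 points), the broadest calf libraries, were on the side of the heifers. IUHT-B calf 5, which had only 55 positions in the locus, was the farthest on the other side at 24.8 points, and IUHT-B calf 4 was at -30.9 points. The gap between locus and flanks differed between liver and mammary gland by 8.49 points (exact permutation P = 0.23), and without IUHT-B calf 4 by 11.9 points (P = 0.036). Of the alternative settings tried for this result, only this 1 had P under 0.05, and 21 did not.

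**Figure D1:**
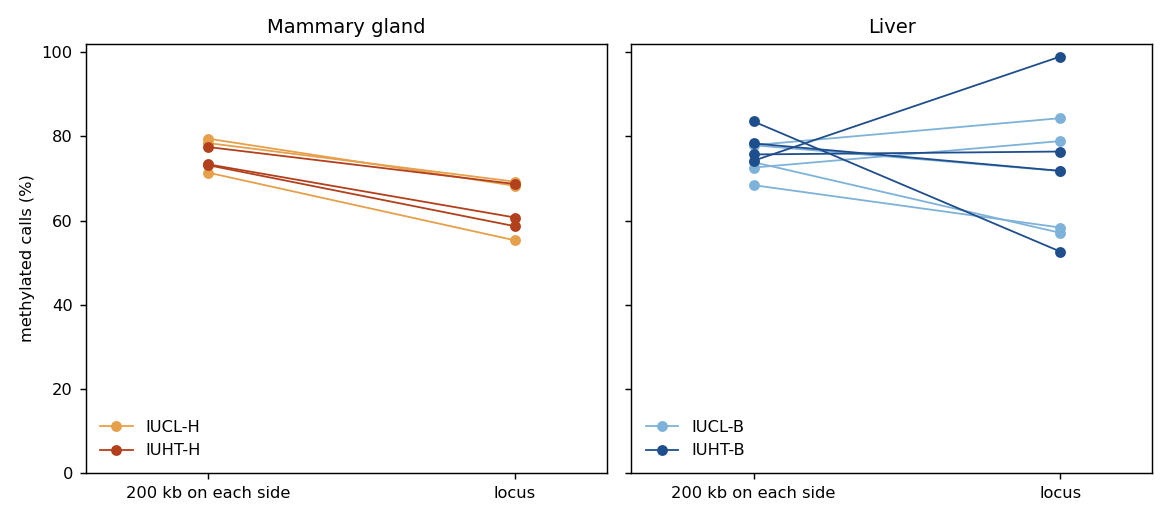
Methylation level (percent of methylated calls, vertical axis) of each animal in the 200 kb on each side and in the locus, with 1 line per animal, heifers on the left and bull calves on the right. All 6 heifer lines fall towards the locus, while calf lines run both ways and the calf values spread from 52.6% to 99.0% in the locus.

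Much of the low mammary level lay in discrete low places. In windows of 1 kb with at least 50 calls summed over the 6 heifers, 12 of 80 windows in the locus had a level of 10% or less. This was 15% of windows, against 6.31% in the flanks (19 of 301) and 4.24% on chromosomes 1 to 29 and X (18404 of 434399). These low windows were chosen on the heifer values, so their low heifer level is a description. They formed 8 separate blocks, 5 of which lay below DGAT1, at 1756000 to 1756999, 1766000 to 1767999, 1771000 to 1771999, 1778000 to 1779999 and 1787000 to 1788999. Pooled over heifers, these 5 blocks had 5.66%, 2.48%, 4.03%, 3.29% and 6.21% methylation on 318 to 692 calls each. The sixth block covered the lower end of DGAT1, the seventh lay inside DGAT1, and the eighth lay above it at 1825000 to 1826999 with 3.21% of 592 calls (Wilson 95% confidence interval 2.06 to 4.96%).

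The calf reads took no part in choosing these windows. All 12 windows had at least 50 calls summed over the 9 calves, and 10 of them were at or below 10% in calves too. Of the 68 other windows of the locus, 66 had that depth in calves and 2 of them were at or below 10%. The median calf level was 3.54% over the 12 windows and 85.0% over the 66. In the flanks, 12 of the 18 low windows with that depth were at or below 10% in calves, and 14 of 274 other windows. The block at 1825000 to 1826999 was read in 8 of 9 calves, with levels of 0% to 10.1%. The other 7 blocks were read in 2 to 5 calves each, with 60.1% to 100% of the calls from IUCL-B calves 4 and 5. At 1756000 to 1756999 the calves differed, with 100% of 23 calls in IUCL-B calf 3, 50.0% of 4 calls in calf 2, 4.76% of 42 calls in calf 1 and 0 methylated of 277 calls in calf 5. Of the 12 low windows of the locus, those above 10% in calves were 1 window of the block at 1766000 to 1767999 and the window inside DGAT1.

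**Figure D2:**
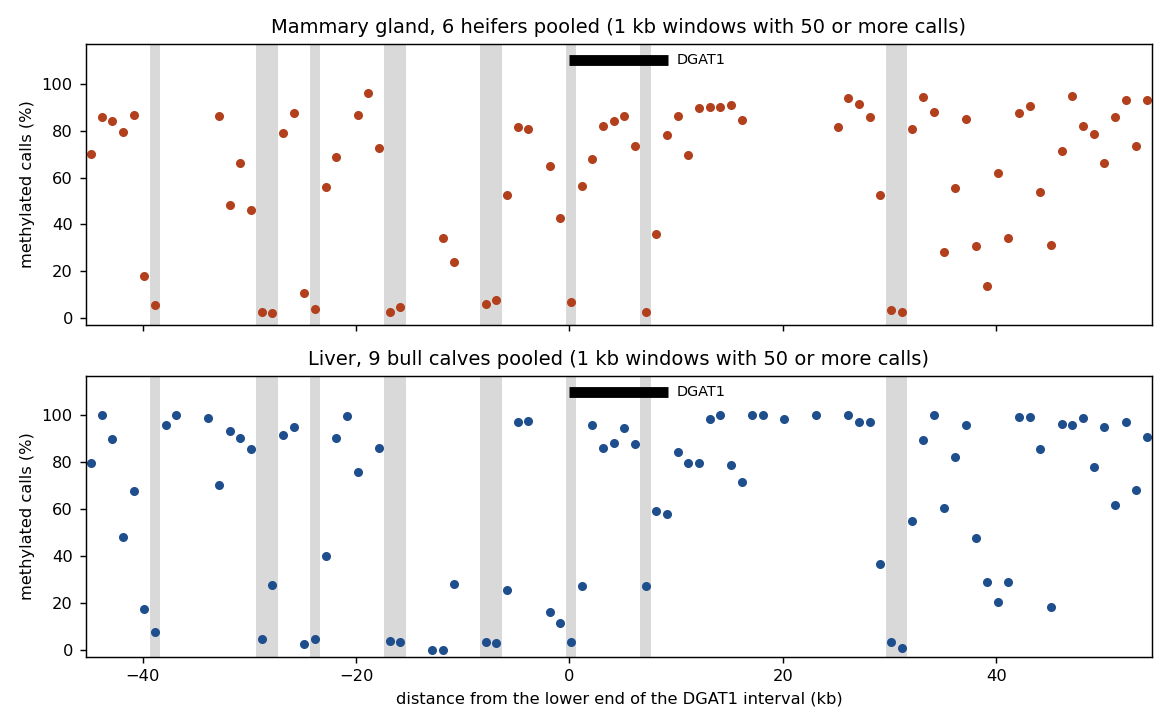
Methylation level (percent of methylated calls, vertical axis) in 1 kb windows along the locus, by distance in kb from the lower end of DGAT1, pooled over 6 heifers (top) and 9 bull calves (bottom). Grey bands mark the 12 windows at 10% or less in heifers, and the black bar marks DGAT1. In the calf panel 10 of the 12 grey bands again hold values at or below 10%.

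Heifers differed in how many of their calls fell in the low windows. Outside these windows the heifers had 71.2% to 77.3%, a mean of 74.4 ± 2.41% (SD, n = 6), against 63.5 ± 6.02% over the whole locus. Inside the windows they had 2.81% to 12.1%. The share of locus calls inside them was 11.8%, 9.47% and 23.4% in IUCL-H heifers 1 to 3, and 17.7%, 11.8% and 20.4% in IUHT-H heifers 1 to 3. IUCL-H heifer 3, with the largest share, had the lowest locus level, and IUCL-H heifer 2, with the smallest, had the highest. Since the windows were chosen for a low level in these heifers, a larger share in them lowers the locus level by construction. With the low windows left out of both locus and flanks, the locus still had the lower level in 6 of 6 heifers. The difference then was -5.51 ± 0.871 points (SD, n = 6). This is a description, since the windows left out were chosen on the same values and made up more of the locus than of the flanks.

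**Figure D3:**
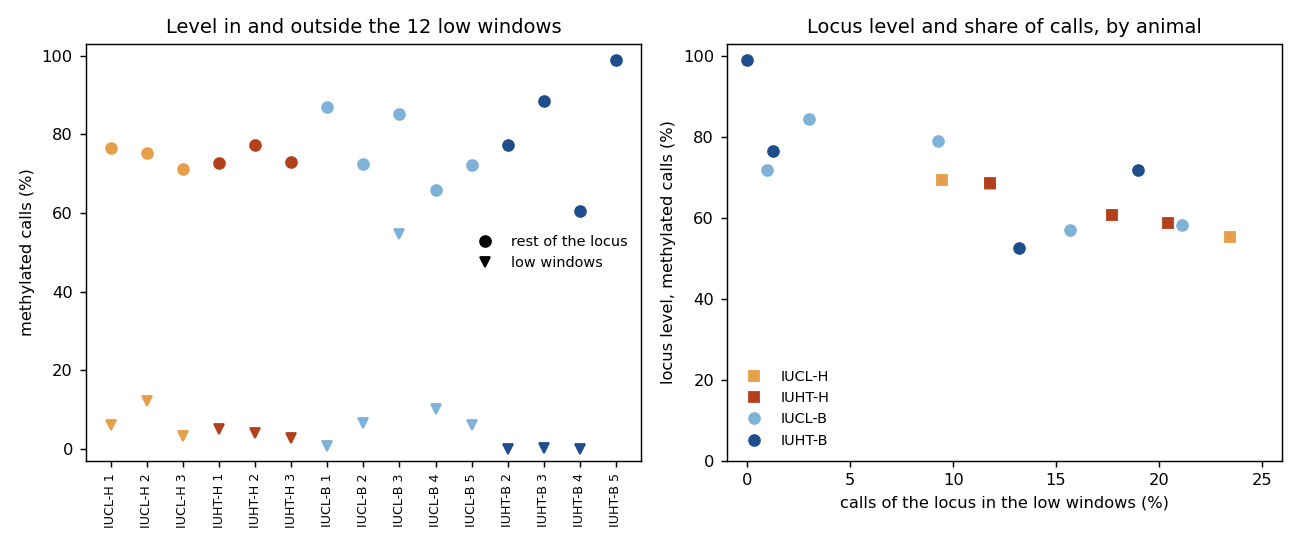
Left, methylation level of each animal in the 12 low windows (triangles) and in the rest of the locus (circles). Right, level over the whole locus against the share of the animal's locus calls inside the low windows, where heifers (squares) with a share from 9.47% to 23.4% have levels from 69.3% down to 55.3%. IUHT-B calf 5 had no position in the low windows.

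DGAT1 itself was mostly methylated in mammary gland, with a low level at its lower end. Over 1795351 to 1804562 the level was 77.7%, 76.6% and 61.2% in IUCL-H heifers 1 to 3 and 68.5%, 68.8% and 67.3% in IUHT-H heifers 1 to 3, on 106 to 203 positions each. The stretch of the locus below DGAT1 was lower than DGAT1 in all 6 heifers (47.4 ± 7.36% against 70.0 ± 6.18%). The stretch above DGAT1, the side on which ARS-UCD2.0 places HSF1, had 73.6 ± 5.67% and was higher than DGAT1 in 4 of 6 heifers. By the mean of a whole stretch, the lower mammary level lay on the lower-coordinate side of DGAT1, although the low block at 1825000 to 1826999 lay above DGAT1. The side of HSF1 on UMD3.1 was not checked.

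Window by window, DGAT1 went from a low to a high level over a short distance in heifers. The window from 1795000, which covers the lower end of DGAT1, had 7.02% of 242 calls methylated (95% interval 4.43 to 10.96%), and single heifers had 0% to 21.4%. Its part inside the DGAT1 interval had 10.3% of 146 heifer calls and 2.25% of 89 calf calls methylated. The next windows up had 56.4%, 68.1%, 81.8%, 84.2%, 86.2% and 73.5%. The window from 1802000 then fell to 2.78% of 72 calls (95% interval 0.765 to 9.57%), with 0 methylated calls in 4 of 6 heifers. Only 4 to 24 calls per heifer lay there, and the windows after it had 36.0% and 78.2%.

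A finer search for runs of neighbouring low positions found 2 in the locus, of which 1 lay just below DGAT1, at 1794895 to 1795040. Between these ends 6.38% of 94 heifer calls were methylated. None of 415 calls in the 3 calves that were read there was methylated, which allows a share of up to 0.723%. Of these calls 387 came from IUCL-B calf 2, and the 28 calls of the other 2 calves alone allow a share of up to 10.7%. Calves had 3.13% of 96 calls methylated in the whole window from 1795000. In this window every heifer and calf that was read had 21.4% or less.

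In liver, the DGAT1 interval was thinly read. The level was 99.8%, 69.0%, 96.2%, 62.7% and 72.1% in IUCL-B calves 1 to 5, on 10, 14, 20, 66 and 150 positions. In IUHT-B calves 2 to 5 it was 53.8%, 83.7%, 100% and 100%, on 10, 7, 2 and 1 positions. The calf levels enclosed the whole range of the heifers, and the 3 highest rested on 1, 2 and 10 positions. Liver and mammary gland differed by 11.9 points (81.9 ± 18.0% against 70.0 ± 6.18%; exact permutation P = 0.144), and without IUHT-B calf 2 by 15.4 points (P = 0.047). Of the alternative settings tried for this difference, only this 1 had P under 0.05, and 19 did not. In the window from 1802000, only 2 calves were read, IUCL-B calf 4 with 0% of 18 calls and calf 5 with 34.3% of 67 calls.

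By means of 5 kb bins, the widest departure between the tissues near DGAT1 lay just below its lower end. It rested in part on calves read where heifers were low too. In the bin from 1790000 to 1794999 the heifers had 64.0%, 67.4% and 71.1% (IUCL-H) and 60.4%, 64.7% and 64.6% (IUHT-H). The calves with at least 10 calls had 5.15%, 0%, 32.9% and 43.2% (IUCL-B calves 2 to 5) and 65.2% and 2.86% (IUHT-B calves 2 and 4). Heifers kept within 60.4% to 71.1%, while 5 of these 6 calves lay below every heifer and IUHT-B calf 2 lay among them. Of the 408 calls of IUCL-B calf 2, 387 lay from 1794895 to 1795040, as did all 16 calls of IUCL-B calf 3. Heifers had only 6.38% of 94 calls methylated there, so the levels of these calves came largely from positions that were low in heifers too. The 0% of IUCL-B calf 3 rested on 1 position and the 2.86% of IUHT-B calf 4 on 3, and the other 4 calves had 6 to 68 positions. With IUCL-B calves 2 and 3 included, the liver mean was lower by 40.5 points (24.9 ± 26.5%, n = 6, against 65.4 ± 3.59%, n = 6).

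Within that bin, the pooled levels differed most in the window from 1793000. The window from 1793000 had 65.0% of 331 calls methylated in heifers and 16.1% of 310 calls in calves, or 26.2% without IUCL-B calf 5. The window from 1794000 had 42.7% of 211 heifer calls and 11.5% of 582 calf calls. Farther out, from 1790000 to 1792999, both tissues were at 80.6% or more in every window. In the window from 1794000, 387 of the calf calls came from IUCL-B calf 2, at 5 positions. All 387 lay from 1794895 to 1795040, where heifers were low too. Without that calf the others had 34.4% of 195 calls in this window. IUHT-B calf 2 had 64.3% there, on 28 calls at 2 positions. The calves with the broadest libraries also lay below the heifer mean there, at 31.9% (IUCL-B calf 4, 18 positions) and 34.4% (calf 5, 11 positions), but within the heifer range of 33.3% to 71.4% or just under it. In the window from 1793000 these calves had 25.6% and 9.24%, and the heifers had 59.0% to 72.5%.

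Across the genome, quasi-binomial logistic regression with an F test called 5.05% of 134428 bins of 5 kb between tissues (a difference of at least 15 points and a Benjamini-Hochberg adjusted P of 0.05 or less). It called 4.70% with liver higher and 0.35% with liver lower. None of the 18 testable bins of the locus was called, and 3 had an unadjusted P under 0.05, against 19.8% of all bins. The tissues did not overlap in 7.39% of all bins (7.09% with liver higher) and in 0 of the 18. The bin below DGAT1 had the smallest adjusted P of the 18 (0.0713). Limma on log2 ratios of methylated to unmethylated calls also called 0 of 18, against 8.1% of all bins (adjusted P = 0.0618 for this bin). Limma on means that weigh every position alike called 2 of 18, against 6.69% of all bins. They were this bin (-37.3 points, adjusted P = 0.0155) and the bin from 1755000 to 1759999 (41.9 points, adjusted P = 0.0248). The regression called the bin below DGAT1 without IUHT-B calf 2 (-48.5 points, adjusted P = 0.0327) and without IUCL-B calf 5 (-44.1 points, adjusted P = 0.0422).

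The bin from 1795000 to 1799999, which holds the lower part of DGAT1, had 62.5%, 60.0% and 37.6% in IUCL-H heifers 1 to 3 and 49.2%, 61.0% and 52.8% in IUHT-H heifers 1 to 3. The calves with at least 10 calls had 99.7%, 92.6%, 62.8% and 77.8% (IUCL-B calves 1, 3, 4 and 5) and 4.35% and 100% (IUHT-B calves 2 and 4). These rested on 5, 10, 43 and 81 positions in the IUCL-B calves and on 3 and 1 in the IUHT-B calves. By calls, all but IUHT-B calf 2 lay above every heifer, and the liver mean was higher by 19.0 points (regression adjusted P = 0.168). With every position weighted alike, IUCL-B calf 4 had 46.9%, within the heifer range of 37.1% to 61.9%. Only 2 IUHT-B calves had the depth, so treatment was not tested in this bin in liver.

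Across the locus, as across all bins tested, the liver mean was more often the higher one. It was higher in 14 of the 18 bins and lower in 4, and it was higher in 63.9% of all bins tested. The bin from 1755000 had 65.1 ± 41.6% in 7 calves and 16.0 ± 8.12% in heifers. Its calf values ran from 6.33% to 100% and its heifer values from 7.63% to 30.2%, so the calves covered almost the whole scale, and these 7 calves had 2 to 51 positions each. The lowest mammary bin, from 1785000 to 1789999, ran from 7.37% to 23.4% in heifers and from 0% to 9.52% in the 4 calves read there, too few for the test, where the 0% of IUHT-B calves 3 and 4 rested on 7 and 3 positions. The bin from 1770000, the third of the 3 lowest, had 22.2 ± 4.31% in heifers and 46.4 ± 41.3% in 7 calves, where the 100% of IUHT-B calf 3 rested on 1 position.

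The 3 most methylated mammary bins all lay above DGAT1, and the tissues were alike in size there. The bin from 1805000 had 88.0 ± 3.14% in heifers and 90.6 ± 10.8% in 8 calves, the bin from 1810000 had 87.0 ± 3.83% and 87.5 ± 16.2%, and the bin from 1820000 had 86.4 ± 3.70% and 86.4 ± 20.1%. Adjusted P-values of the regression were 0.71 to 0.973 for these bins. Over the whole locus, liver and mammary gland had 72.3 ± 14.7% and 63.5 ± 6.02%, a difference of 8.78 points (exact permutation P = 0.194). Among the 11468 windows of 100 kb, 75.7% had a smaller difference, and the median was 4.16 points. At the 75 positions read in at least 3 calves and 3 heifers the difference was 5.76 points (exact permutation P = 0.115). Each animal's level there was the mean over those of the 75 that it had read, so the animals were not matched by site.

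**Figure D4:**
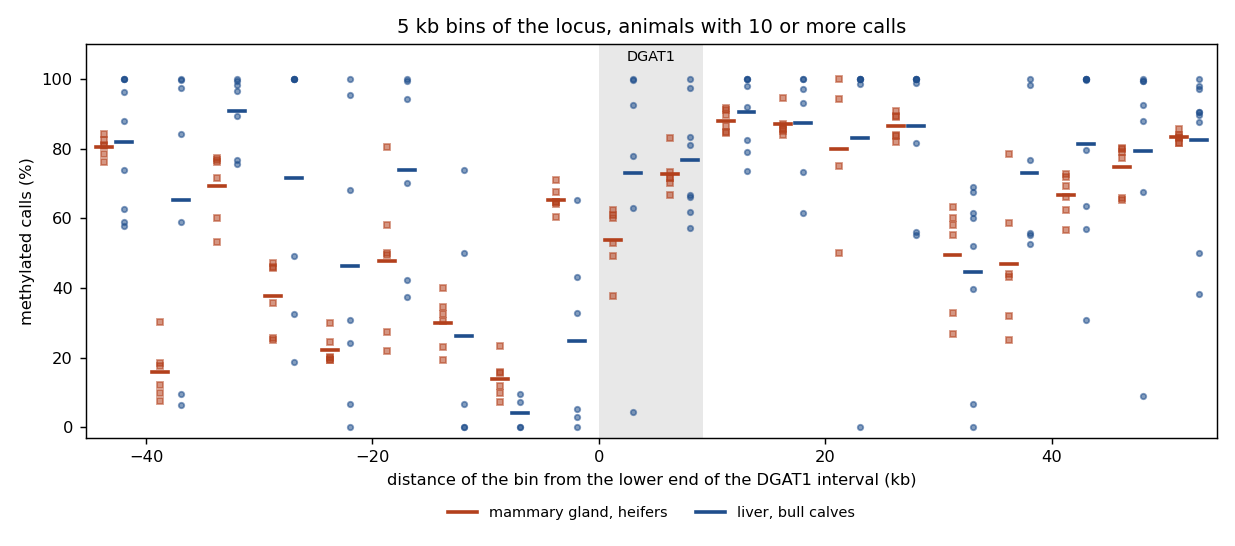
Methylation level (percent of methylated calls) in the 5 kb bins of the locus by distance in kb from the lower end of DGAT1, with 1 point per animal with at least 10 calls and a line at the mean of each tissue. Squares are heifers and circles are bull calves, and the band marks DGAT1. In the bin just below DGAT1 the heifers sit at 60.4% to 71.1% and 5 of 6 calves sit below them. Of these, IUCL-B calves 2 and 3 were read mostly or only from 1794895 to 1795040, where heifers were low too.

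The comparison of in utero heat stress with cooling asked whether late gestation heat left a difference in methylation at the locus. The mean locus level was 75.0 ± 19.1% in IUHT-B and 70.1 ± 12.2% in IUCL-B, and the groups overlapped almost fully. The difference was 4.87 points (exact permutation P = 0.627, smallest possible 0.00794). Without IUHT-B calf 5 it was -3.14 points. At the 12 positions read in at least 2 calves of each group, each weighted alike, IUHT-B had 74.7 ± 8.07% and IUCL-B 45.7 ± 30.6%, a difference of 29.01 points (exact permutation P = 0.103). Each calf's level there was the mean over those of the 12 positions that it had read, so the calves were not matched by site. In mammary gland IUHT-H had 62.7 ± 5.31% and IUCL-H 64.3 ± 7.79%, a difference of -1.58 points (exact permutation P = 0.9). With 3 against 3 heifers the smallest P is 0.1, so no such test could pass 0.05. Leaving out IUCL-H heifer 1, IUCL-H heifer 2 or IUHT-H heifer 3 turned the sign of the mammary difference. The treatment difference in liver exceeded that in mammary gland by 6.45 points (exact permutation P = 0.573).

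The treatment difference in the DGAT1 interval was 4.42 points in liver (84.4 ± 21.8% in IUHT-B against 80.0 ± 16.8% in IUCL-B; exact permutation P = 0.69) and -3.59 points in mammary gland (68.2 ± 0.773% against 71.8 ± 9.23%; P = 0.4). The 2 IUHT-B calves at 100% had 2 positions and 1 position in the interval. Without either of them the liver difference was -0.789 points. The 3 IUHT-H heifers lay within 67.3% to 68.8%, inside the range of the IUCL-H heifers.

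In 5 kb bins, the same regression called 5.30% of 44425 bins in liver for treatment, at 15 points or more and an adjusted P of 0.2 or less. It called 3.32% with IUHT-B higher and 1.98% with IUHT-B lower. In the locus, 2 of 8 testable bins were called, in opposite directions, and 4 had an unadjusted P under 0.05, against 17.8% of all bins. Beside the called bins these were the bin from 1805000, and the bin from 1825000 (65.6% in IUHT-B against 32.0% in IUCL-B, adjusted P = 0.224), where the IUHT-B calves tested had 4, 5 and 8 positions. In the bin from 1800000 to 1804999, which holds the upper end of DGAT1, the level was 57.1%, 66.7%, 97.5%, 66.2% and 61.7% in IUCL-B calves 1 to 5. It was 81.0%, 83.3% and 100% in IUHT-B calves 2, 3 and 5, and calf 4 had too few calls there. By calls, the IUHT-B calves lay above 4 of the 5 IUCL-B calves, with IUCL-B calf 3 among them. With every position weighted alike, IUCL-B calf 1 had 87.5% and lay above IUHT-B calves 2 (85.7%) and 3 (83.3%). By calls the difference was 18.3 points with an adjusted P of 0.197, at the edge of the threshold. The call was lost when any 1 of IUCL-B calves 1, 2, 4 and 5 was left out (15.1 to 17.5 points, adjusted P = 0.239 to 0.31). Without IUHT-B calf 2, 3 or 5 the bin lacked the 3 IUHT-B calves needed and could not be tested. The value of IUHT-B calf 5 came from 615 calls at 1 position.

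The second bin was the last of the locus, from 1845000 to 1849999. The level was 97.9%, 100%, 87.5%, 89.8% and 90.5% in IUCL-B calves 1 to 5 and 97.0%, 50.0%, 38.2% and 90.4% in IUHT-B calves 2 to 5. By calls, IUHT-B calves 3 and 4 were low and calves 2 and 5 lay among the cooled calves. The 50.0% of IUHT-B calf 3 rested on 702 calls at 3 positions, and the other IUHT-B calves had 7 to 11 positions. With every position weighted alike, IUHT-B calves 2 to 5 had 72.7%, 66.7%, 66.7% and 57.1%. IUCL-B calves 1 to 5 then had 91.7%, 100%, 83.3%, 88.9% and 87.5%, so that all IUHT-B calves lay below all IUCL-B calves. The share of all bins whose groups separate under this weighting is not given here. By calls, where the groups overlapped, the difference was -24.2 points (regression adjusted P = 0.115). It was -17.9 points without IUHT-B calf 3 and not called (adjusted P = 0.272). Without IUHT-B calf 4 it was -13.98 points (adjusted P = 0.135), under the threshold of 15 points, and without IUCL-B calf 5 it was -24.9 points and not called (adjusted P = 0.2004). In heifers the same bin had 84.0 ± 1.40% in IUHT-H and 82.3 ± 1.32% in IUCL-H. Limma on log2 ratios called 0 of the 8 liver bins, as it called 0 of the 44425. Limma on means that weigh every position alike called 1 of 8, against 6.96% of all bins. That was this last bin (-24.5 points, adjusted P = 0.0687).

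No bin of the locus was called for treatment in mammary gland, where the regression called 0% of 201173 bins. Of the 19 bins tested, 1 had an unadjusted P under 0.05, against 1.38% of all bins, and both forms of limma called 0. That bin, from 1805000 to 1809999 directly above DGAT1, had 86.6%, 84.8% and 84.5% in IUCL-H heifers 1 to 3 and 90.9%, 89.6% and 91.6% in IUHT-H heifers 1 to 3. All IUHT-H heifers lay above all IUCL-H heifers, by 5.44 points on average (90.7 ± 1.00% against 85.3 ± 1.16%; regression adjusted P = 1). Groups did not overlap in 9.39% of all bins (4.73% with IUHT-H higher) and in 1 of 19 bins of the locus, so this count was near the background.

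The same bin was the 1 of 8 in liver whose groups did not overlap, against 8.59% of all liver bins (6.87% with IUHT-B higher). The share of bins that separate in both tissues at once is not given here. IUCL-B calves 1 to 5 had 79.0%, 73.5%, 82.4%, 97.9% and 92.0%, and IUHT-B calves 2, 3 and 4 had 100% each, on 231, 354 and 25 calls at 8 positions. IUHT-B calf 5 had too few calls for the test, 4, all of them methylated. With every position weighted alike, IUCL-B calves had 81.8% to 94.8%, and IUHT-B calves 2, 3 and 4 again had 100%. The share of all bins that separate under this weighting is not given here. By calls the difference was 15.0 points with an adjusted P of 0.218, which missed the threshold of 0.2. With IUCL-B calves 4 and 5, the broad libraries, left out together it was 21.7 points and called (adjusted P = 0.0441). Without IUHT-B calf 2, 3 or 4 the bin lacked the 3 IUHT-B calves needed and could not be tested. The IUHT-B libraries read 4 to 8 positions in this bin and the IUCL-B libraries 11 to 113, and the part of breadth in the difference was not tested.

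**Figure D5:**
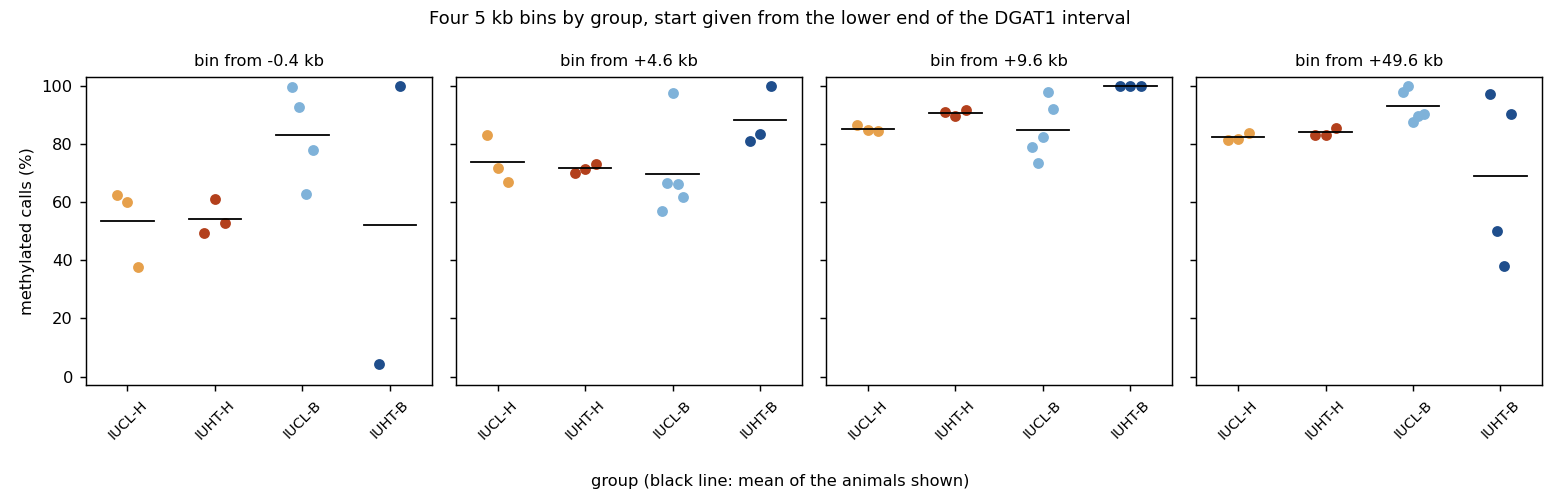
Methylation level (percent of methylated calls) by group in 4 bins of 5 kb, the 2 that hold DGAT1, the bin directly above it and the last bin of the locus, with 1 point per animal with at least 10 calls and a black line at the group mean. In the third panel every IUHT animal shown lies above every IUCL animal of its tissue, 89.6% to 91.6% against 84.5% to 86.6% in heifers. Groups did not overlap in 9.39% of all bins in heifers and in 8.59% in calves, and the share for both tissues at once is not given here. The third bin was chosen after its values were seen. In the fourth panel, where levels are by calls, 2 of 4 IUHT-B calves lie below every IUCL-B calf.

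Single cytosines could not be compared at the depth used for differentially methylated cytosines (DMCs). Where all animals of a tissue had over 10 reads, logistic regression called 33.1% of 900 sites in liver and 1.54% of 18486 sites in mammary gland as DMCs. That test takes reads as independent. With the spread between animals in the model, an overdispersion F test called 57 sites in liver and 0 in mammary gland, limma 3 and 1, and edgeR 2 and 0. None of the sites tested lay in the locus or in its flanks, so no DMC could be found there. With more than 5 reads in every heifer, 1 site of the locus could be tested and it was not called. This was position 1825473, in the low block above DGAT1, with 0 methylated calls in all 6 heifers on 7 to 15 reads each. At 1825483, in the same block, the heifers had 0% to 14.3% on 4 to 15 reads. At 1846348, in the methylated upper end of the locus, they had 72.7% to 100% on 4 to 14 reads, and at 1846368 they had 75.0% to 100%.

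In liver the most widely shared position was 1831464, read in 8 of 9 calves. It was unmethylated in IUCL-B calves 1, 2 and 3 (1, 1 and 101 calls) and fully methylated in IUCL-B calf 5 (1 call) and in IUHT-B calves 2 to 5 (1, 321, 2 and 1 calls). Only IUCL-B calf 3 and IUHT-B calf 3 had more than 2 calls there. The next most shared, 1826296 and 1826302 in the low block above DGAT1, were read in 6 calves and had 0% to 0.41% in every one. Only IUHT-B calf 3 was deep there, with 244 calls at each position, and the other calves had 1 to 3 calls.

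Of the 100 kb windows of chromosome 14, those whose levels over the 15 animals were closest to the locus lay at 5350000 to 5449999, 7550000 to 7649999 and 3450000 to 3549999. Their root mean square differences from the locus over the animals were 10.1, 10.3 and 10.5 points among 387 windows compared. Their mean heifer levels were 59.1%, 67.4% and 66.9%, and their mean calf levels 72.2%, 72.8% and 77.4%. The differences were smaller than the SD of the calves in the locus and larger than that of the heifers.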

How the data were processed

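DNA was cut with MspI and TaqαI, size selected, converted with bisulfite and read as 50 bp single ends. The submitters' processing notes name Trim Galore 0.4.4, Bismark 0.17.0, FastQC and UMD3.1. The versions in the study's methods differ from these. Per position, the authors deposited the count of methylated and of unmethylated calls and the percent methylated, which equalled the counts on every line. Positions on both strands were kept separate and no coverage minimum was applied. All values were computed from the counts. Exact permutation tests over animals, two-sided, compared the levels (Python 3.11.15). Bins of 5 kb with at least 10 calls (in all heifers, in 3 calves per group for treatment and in 5 calves for tissue) were tested by quasi-binomial logistic regression with an F test across the genome, adjusted by the Benjamini-Hochberg method, with limma 3.58.1 as an alternative. DMCs needed more than 10 reads in every animal, with limma and edgeR 4.0.16 as alternatives. The bin regression and the logistic regression of sites were also run on simulated data. The permutation tests, limma and edgeR were not. Intervals are Wilson 95%, and the limit for a count of 0 is 3 calls. Both reflect the error of counting alone, since the reads carried no molecular identifiers and PCR copies are not separate molecules. Calls at neighbouring positions can also come from the same read. The members, bins and lists were chosen with earlier results of these data known. The named bins were those that hold DGAT1, those called, and the 3 highest and 3 lowest in heifers. The bins from 1790000 and from 1805000 and the 1 kb low windows were chosen after their values were seen. The named sites were, in heifers, the 3 with the most reads in the shallowest animal, ties included. In liver they were the 3 read in the most calves. Each animal was 1 library, and 0 of 105 pairs of libraries were identical.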

Additional observations from a re-analysis of the deposited data

Results flagged for a closer look

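In the low windows of the locus, IUCL-B calf 3 had 54.8% methylated calls, while the other 4 IUCL-B calves had 0.655% to 10.1%. Its gap to the nearest calf was larger than Dixon's 95% limit for 5 animals. The value came from 42 calls at 3 positions. In all, 17 sets of group values were compared in this way and 1 had an animal apart, where chance gives about 1 in 20.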

How the results depend on the processing

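The results that answer a comparison were recomputed under 246 combinations of result and setting. Of these, 204 kept their direction and their side of the threshold or, for counts of bins or DMCs, a similar count. The 204 include 17 combinations for DMCs in liver and 12 in mammary gland, where the locus had at most 1 testable site. They also include 12 for mammary treatment bins, where no bin of the genome was called. For mammary treatment levels the smallest P possible was 0.1, so their side of the threshold could not change. Agreement in such combinations is no sign of stability. With 1 animal left out at a time, the treatment difference of the locus level ranged from -3.14 to 12.3 points in liver and from -6.06 to 0.913 points in mammary gland, and the difference between these from -1.57 to 13.9 points. At the 12 positions read in at least 2 calves of each group, the liver difference was 29.01 points (exact permutation P = 0.103). The calves were not matched by site there, since each had read only part of these positions or different ones. With IUCL-B calves 4 and 5 left out together, the liver treatment difference was -3.38 points for the locus and -3.95 points for DGAT1, and the difference from mammary gland was -1.81 points. The mammary treatment difference turned to 0.896 points at shared positions and to 0.0191 points outside the low windows, an alternative chosen after seeing the data. For DGAT1 it ranged from -8.91 to -0.673 points with 1 animal left out and was 1.35 points at positions with at least 5 calls. The liver treatment difference of DGAT1 was -0.789 to 14.6 points with 1 animal left out, and -0.789 points without positions above 200 calls. The gap between locus and flanks in heifers kept its sign, at -12.7 to -11.3 points with 1 heifer left out, where the smallest P was 0.0625. In liver this gap was -7.14 to -0.171 points with 1 calf left out (exact permutation P = 0.172 to 0.984). The gap between the tissues in this measure ranged from 4.94 to 11.9 points, and in DGAT1 from 9.65 to 15.4 points. With strands merged and CpGs weighted alike, liver exceeded mammary gland in the locus by 11.3 points (exact permutation P = 0.0378). Of the settings tried for this difference, only this 1 had P under 0.05, and 21 did not.

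Called bins of the locus are given here with the share of all bins called in brackets. For treatment in liver they numbered 1 of 7 with 10 kb bins (3.14%) and 1 of 6 with 2.5 kb bins (6.86%). They numbered 1 of 7 with at least 20 calls (3.7%) and 3 of 11 with at least 5 calls (7.9%). Without IUCL-B calves 4 and 5 they were 2 of 7 (3.46%), and with 1 calf left out 0 to 2 (2.7% to 11.8%). Limma called 0 of 8 on log2 ratios (0%) and 1 of 8 on positions weighted alike (6.96%). Between tissues they numbered 0 to 2 with 1 animal left out (3.64% to 7.56%) and 2 of 28 with 2.5 kb bins (6.39%). Without IUCL-B calves 4 and 5 they were 2 of 12 (9.67%). Limma called 0 of 18 on log2 ratios (8.1%) and 2 of 18 on positions weighted alike (6.69%). The cause of these changes was not tested. No DMC was called in the locus under any setting, and under all but 1 no site there could be tested. No position of the locus was read in all 9 calves, and a heifer had more than 10 calls at 2 to 5 positions.

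Bull calf numbers recur in both groups. Deviations of same-numbered calves had correlations of -0.0191 to 0.00165 over 11468 windows, and those of other pairs -0.0243 to 0.035. Calf libraries shared few positions, so these values cannot tell whether the number marks a pairing. With this number as a replicate block, over calves 2 to 5, the liver treatment difference was 7.08 points for the locus and 9.37 points for DGAT1. Limma then called 0 of 7 bins of the locus and 0 of 31961 bins of the genome. No DMC was called in the locus, where no site could be tested.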

Other observations

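Positions with more than 10 calls in the locus numbered 10 to 237 per calf and 2 to 5 per heifer. Of these, 94.9% to 100% per calf had a level of 10% or less or of 90% or more.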
